A study of Mus musculus with 12 samples.

Results

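Ovalbumin (OVA, the main protein of chicken egg white and a common model antigen) was given to mesenchymal stromal cells (MSCs) together with A1, and the RNA of these cells was set against that of MSCs given A1 alone. A1 is a variant of the Accum molecule, in which cholic acid, a bile acid, is linked to a nuclear localization signal peptide. The comparison was chosen by the sample titles. It rests on 8 of the 12 samples of the series, 4 with A1 (50 µM) and 4 with A1 + OVA (50 µM A1 with 1 mg/ml OVA), all exposed for 6 h, and the 4 untreated samples (Control) served to give the direction of the A1 response. All samples were primary wild type MSCs of C57BL/6 mice, grown out of bone marrow and held in medium with fetal bovine serum. The marrow was that of young adult female mice, and the MSCs had been expanded over several passages and frozen before use. The labels do not say whether the 4 samples of a group came from separate mice or cultures, so that the p-values measure the spread between these samples, which may be technical. No group received OVA without A1, and an effect of OVA by itself cannot be told apart from an effect of OVA on the A1 response. The label that describes the A1 + OVA medium ends in a fragment naming insulin, with no amount, and the sources used here do not say whether insulin was added.

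MSCs are adherent stromal cells of the marrow that support blood formation and secrete growth factors, chemokines and matrix. Dendritic cells present ingested antigen by breaking it down in endosomes and lysosomes or in the proteasome and by displaying the peptides on MHC molecules, and MSCs can take up protein antigens and present them to a lesser degree. Cells that meet growth factors, peptides or stress switch on immediate early genes through the kinase ERK and the serum response factor SRF, and the products of these genes in turn act on proteases, cytokines and on the feedback inhibitors that shut ERK down.

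The cells carried most of the MSC markers. Of 14 listed MSC surface genes 11 were tested, of which 1 was higher and 3 lower with OVA (1 lower without A1 replicate 1), against 12.9% of all tested genes called. The summed level of all 14 was between 3770 and 3960 CPM (read counts scaled to the size of the library) with A1, between 3600 and 3840 with A1 + OVA and between 3120 and 3260 in Control. Itgb1 held the most counts, up to 30798 in an A1 sample. Pdgfra and Vcam1 had at most 1845 and 1621 counts with A1 against 4326 and 3969 in Control, while Cd44 had at most 6476 against 2996. Thy1 and Nt5e, which encode the MSC markers CD90 and CD73, were near the limit of detection, with at most 3 and 14 counts in a treated sample. Leukocyte RNA was scarce. Of 17 macrophage and leukocyte genes 5 had 0 counts in every sample (Spi1, Tyrobp, C1qa, C1qb and Aif1), and Ptprc, the pan-leukocyte gene CD45, had at most 4 counts in a sample. Total counts ran from 13702348 to 14347870 per A1 sample and from 14359973 to 16674294 per A1 + OVA sample, so that every A1 + OVA library was deeper than every A1 library, and the part of this difference in the results was not tested. Mitochondrial genes held 2.81% to 3.29% of the counts with A1 and 2.77% to 3.06% with A1 + OVA. Within the A1 + OVA group, replicates 1 and 2 resembled each other, as did replicates 3 and 4, with a squared difference of 2.42 and 2.56 times the counting variance per gene against 4.99 to 5.82 times between the pairs. In the A1 group the difference was 2.04 times for replicates 2 and 4 and 2.91 times for replicates 1 and 3. Between these A1 pairs it was 3.25 to 4.72 times.

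Adding OVA changed the expression of 1455 of the 11314 tested protein-coding genes at an adjusted p under 0.05 (12.9%; edgeR's quasi-likelihood test with Benjamini-Hochberg adjustment). Of these, 685 genes were higher (6.05%) and 770 lower (6.81%) with OVA. For 2052 genes (18.1%) all 4 A1 + OVA samples lay on the same side of all 4 A1 samples, above them for 968 genes (8.56%) and below them for 1084 (9.58%). Most of the differences were small: 136 genes (1.2%) also passed an absolute log2 fold change of 0.5 and are called DEGs below, 87 of them higher (0.769%) and 49 lower (0.433%) with OVA. For comparison, A1 alone changed 7098 genes (62.7%) against Control in the same fit. The count of genes higher with OVA fell to 456 without A1 replicate 1, and the count of lower genes fell to 497 without A1 + OVA replicate 4. In the plot of change against level, the DEGs reached from low to high expression, but most lay at low levels. Most of them had a Control mean below 36.1 CPM, the median over all tested genes. The largest changes of well expressed genes were decreases.

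**Figure D1:**
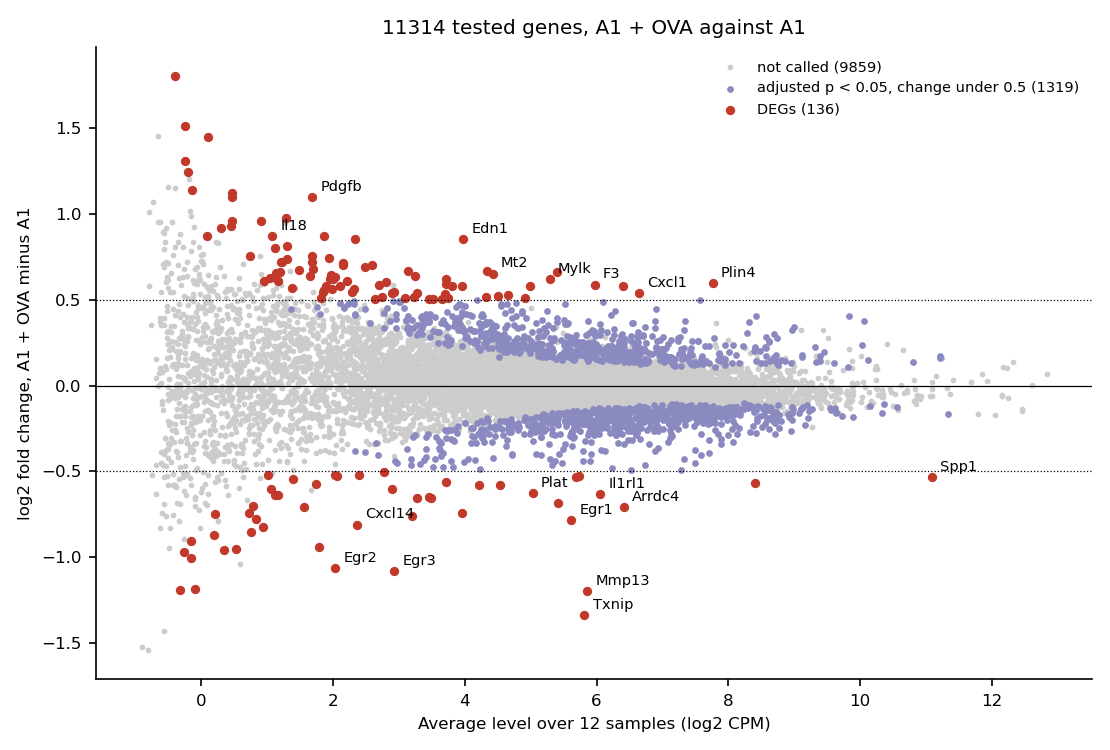
Each point is 1 of the 11314 tested genes, with its average level over the 12 samples in log2 CPM on the x axis and its log2 fold change, A1 + OVA minus A1, on the y axis. The 136 DEGs are red, the other genes called, which lie below the fold change threshold (dotted lines), are blue, and Txnip and Mmp13 stand lowest among genes above 4 log2 CPM.

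Most DEGs moved against the A1 response. A difference was counted as weakening the A1 response where A1 had changed the gene against Control (adjusted p under 0.05) and OVA shifted it the other way, and as strengthening it where both had the same sign. Of the 136 DEGs, 98 (72.1%) weakened the A1 response, 16 (11.8%) strengthened it, and A1 alone had no called effect on 22 (16.2%). The weakened DEGs were 61 genes that A1 lowered and OVA raised and 37 genes that A1 raised and OVA lowered, and in 13 of the 98 the level with OVA lay past that of Control. Of the 1455 genes called by adjusted p alone, 1004 (69%) weakened and 209 (14.4%) strengthened the A1 response. Both differences use the same A1 samples, so that an A1 mean that is high or low by chance appears as a weakened response. With the direction taken from the mean of all treated samples against Control, whose error is unrelated to that of the OVA difference, 86 DEGs weakened, 26 strengthened and 24 had no called response.

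**Figure D2:**
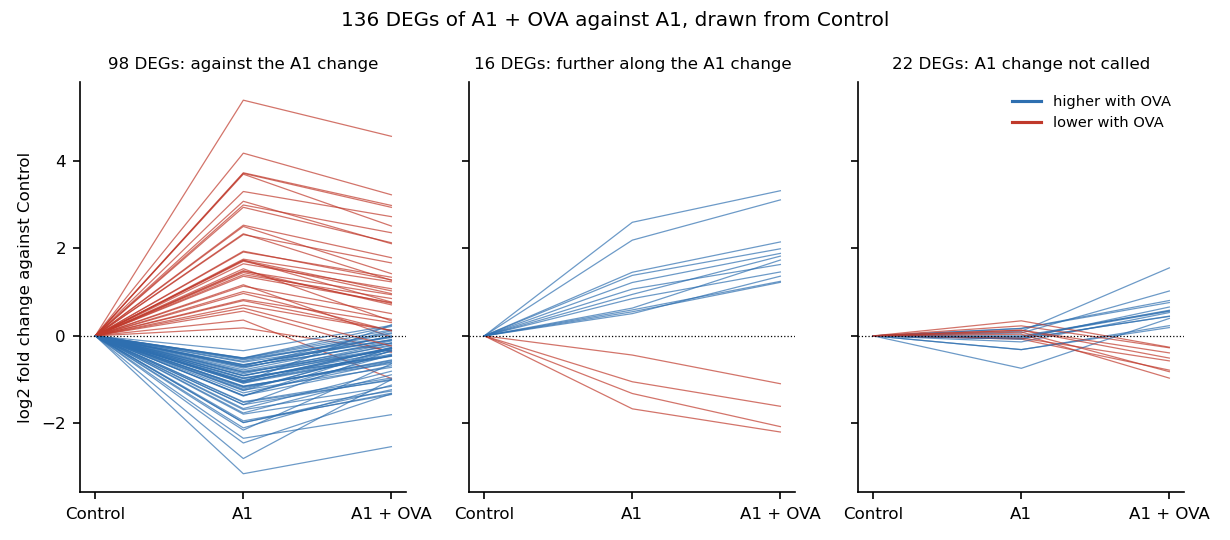
Each line is 1 DEG, drawn as its log2 fold change against Control (y axis) in Control, A1 and A1 + OVA (x axis), in blue where it was higher and in red where it was lower with OVA than with A1. In the left panel (98 DEGs) the lines bend back toward 0 after A1, in the middle panel (16 DEGs) they go further out, and on the right (22 DEGs) A1 alone had no called effect. The panels follow from how the DEGs were sorted.

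The promoters of a few of the genes below are shown first, because their sequences hold elements by which the pathways named here are known to act. Each is the 250 bases before the start of transcription listed by RefSeq (build GRCm38.p6), given 5′ to 3′ on the strand of the gene, with matches in capitals. All of them lie on the plus strand and overlap no annotated exon of their gene. The positions are chr3:96557707-96557956 for Txnip, chr10:67537619-67537868 for Egr2 (1 of 5 listed starts, chosen for holding a match), chr14:20929148-20929397 for Vcl and chr8:75109259-75109508 for Mcm5. The capitals mark a pair of E-box-like elements of the carbohydrate response type (CACGNG, 5 bases apart) in Txnip, a CArG box, the site of SRF, in Egr2 and Vcl, and a pair of overlapping E2F elements (TTTCGCGC and, on the other strand, TTTGGCGC) in Mcm5.
Txnip: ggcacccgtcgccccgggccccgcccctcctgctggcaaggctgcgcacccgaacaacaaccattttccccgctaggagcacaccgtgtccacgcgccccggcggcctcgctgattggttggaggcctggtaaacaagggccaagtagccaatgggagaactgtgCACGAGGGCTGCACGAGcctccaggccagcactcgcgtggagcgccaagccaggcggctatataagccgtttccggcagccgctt
Egr2: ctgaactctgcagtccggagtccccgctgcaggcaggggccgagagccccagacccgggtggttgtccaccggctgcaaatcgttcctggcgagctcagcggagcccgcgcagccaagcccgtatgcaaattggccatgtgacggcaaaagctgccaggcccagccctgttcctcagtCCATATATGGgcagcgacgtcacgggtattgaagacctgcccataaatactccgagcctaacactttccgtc
Vcl: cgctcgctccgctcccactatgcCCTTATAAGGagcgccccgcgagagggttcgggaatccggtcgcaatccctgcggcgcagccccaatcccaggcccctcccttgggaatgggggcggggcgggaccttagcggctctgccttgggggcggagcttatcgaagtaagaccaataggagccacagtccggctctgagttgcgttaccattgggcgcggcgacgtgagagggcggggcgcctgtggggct
Mcm5: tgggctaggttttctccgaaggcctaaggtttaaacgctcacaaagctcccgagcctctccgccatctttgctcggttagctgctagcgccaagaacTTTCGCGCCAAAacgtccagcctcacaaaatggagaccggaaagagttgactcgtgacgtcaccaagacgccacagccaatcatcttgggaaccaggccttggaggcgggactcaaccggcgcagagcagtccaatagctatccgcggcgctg

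Both strands of the 250 bases upstream of all 27025 genes in the table were searched. The carbohydrate response pair was in 14 genes (0.0518%), which include Txnip but not Arrdc4. A CArG box was in 1.62% of the genes. Of the 9 genes of the immediate early list lower with OVA, 4 had a listed promoter and 1, Egr2, held the box, while 5 of the 7 SRF and actin genes higher with OVA did (Actg1, Cnn2, Fhl1, Myl9 and Vcl). An E2F element (TTTCGCGC, TTTGGCGC, TTTCCCGC or TTTGCCGC) was in 2.16% of all genes and in 5 of the 16 replication genes lower with OVA that had a promoter (Cdc6, Cdk1, Mcm5, Mcm6 and Mcm7). The CLEAR core of lysosomal genes (TCACGTGA) was in 0.907% of all genes and in 3 of the 10 lysosome genes higher with OVA that had a promoter (Atp6v1a, Ctsa and Mcoln1). A match describes the letters in this window and not a site in use. A gene with several listed starts counted if any of them held the element. The lists group genes by the same pathways as the elements, so a share above that of all genes could come with the list. Members that were not called were not counted, and the shares do not bear on the change with OVA.

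The largest decrease of a well expressed gene was that of Txnip, which encodes an arrestin that binds thioredoxin and holds back glucose uptake. Txnip (chr3:96557957-96561883) had 77.7, 75.0, 78.8 and 79.8 CPM in the A1 samples and 28.7, 34.6, 28.2 and 31.6 CPM with A1 + OVA, and 59.2, 60.0, 64.7 and 58.4 CPM in Control. The A1 + OVA samples were below every other sample, at less than the level of untreated MSCs, and the A1 samples were above Control. The log2 fold change with OVA was -1.34 ± 0.058 (SE, adjusted p = 2.42e-12), after a rise of 0.36 with A1 alone, so that the gene counts as weakened although its level went past Control. With the direction taken from the mean of all treated samples it counts as strengthened. Its relative Arrdc4 fell too, from 98.7, 90.9, 101.9 and 92.4 CPM with A1 to 59.1, 57.8, 54.5 and 63.4 CPM with A1 + OVA (-0.71 ± 0.049, adjusted p = 7.53e-09). Here the A1 samples overlapped Control (106, 99.4, 100.5 and 98.9 CPM). The difference of -0.07 between A1 and Control had an adjusted p of 0.174.

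**Figure D3:**
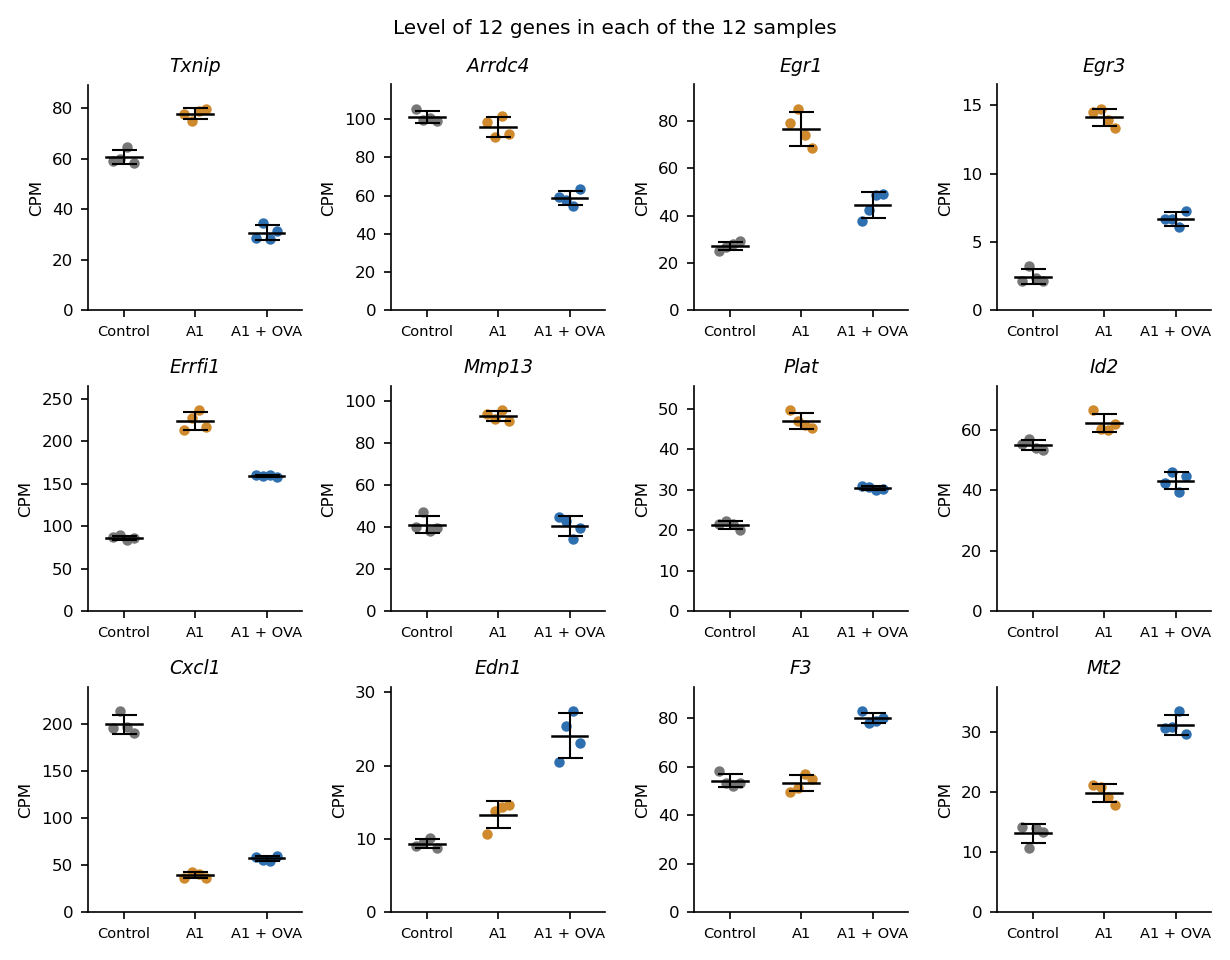
Levels in CPM (y axes, from 0) of 12 genes in Control, A1 and A1 + OVA, with 1 point per sample (n = 4 per group), the mean as a bar and the SD as whiskers. Txnip and Arrdc4 are lowest with A1 + OVA, Egr1, Egr3, Errfi1 and Plat lie between Control and A1, Mmp13 is back at the level of Control, and Edn1, F3 and Mt2 are highest with A1 + OVA.

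Some of the immediate early genes that A1 had induced were lower once OVA was added. Of 25 tested genes listed as immediate early 9 fell and 0 rose (median log2 fold change of the list -0.13, against 0.01 over all tested genes), and all 9 had been raised by A1. At an unadjusted p under 0.05 5 members were higher and DESeq2 called 0 higher, while 1 was called higher with the replicate number as a block and without A1 replicate 1 or A1 + OVA replicate 1, and 2 without the filter on low counts. The EGR family of zinc finger factors led them. Egr1 had 78.8, 85.0, 73.8 and 68.5 CPM with A1, 37.8, 42.2, 48.5 and 49.2 with A1 + OVA and 24.9, 26.8, 28.1 and 29.1 in Control. Every A1 + OVA sample was below every A1 sample and above every Control sample. Its log2 fold change with OVA was -0.78 ± 0.074 (adjusted p = 5.54e-07), against 1.49 with A1. Egr3 had 14.5, 14.7, 13.9 and 13.4 CPM with A1 and 6.67, 6.65, 6.07 and 7.27 with A1 + OVA (-1.08 ± 0.097, adjusted p = 2.79e-07), with 2.17, 3.25, 2.35 and 2.13 in Control. Egr2, the factor with the CArG box above (chr10:67535475-67542188), had 7.95, 7.86, 7.79 and 5.95 CPM with A1, 3.55, 2.91, 4.16 and 3.51 with A1 + OVA and 1.55, 1.71, 1.55 and 1.00 in Control (-1.06 ± 0.14, adjusted p = 2.53e-05). For both genes the 3 groups did not overlap. The remaining decreases were smaller: -0.44 for Klf10, a TGF-beta-induced repressor, -0.34 for Junb and -0.24 for Fosl1, which are subunits of the AP-1 factor, and -0.28 for Ier2, whose call was lost without A1 replicate 1. Fosl1 remained well above Control, at 135 ± 4.71 CPM (mean ± SD, n = 4) with A1 + OVA against 159 ± 7.97 with A1 and 43.6 ± 1.86 in Control. Outside the list, the immediate early genes Npas4 and Arc were DEGs. Npas4 rose with OVA and strengthened the A1 response, with A1 and A1 + OVA samples that overlapped, while Arc fell and weakened it.

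Several genes that feed back on ERK were lower too. Of 21 tested ERK feedback genes and EGF receptor ligands 6 fell and 0 rose, all of them genes that A1 had raised; 0 members were higher at an unadjusted p under 0.05, and DESeq2 called 0 higher. Errfi1, an inhibitor of the EGF receptor, had 214, 227, 237 and 217 CPM with A1 and 160.4, 159, 160.3 and 158 with A1 + OVA (-0.49 ± 0.038, adjusted p = 3.22e-08). The A1 + OVA samples lay within a narrow range that did not reach the A1 samples or the mean of 86.9 ± 2.40 CPM in Control. Dusp6, a phosphatase that inactivates ERK, had 34.0, 36.0, 40.5 and 35.7 CPM with A1 and 23.8, 26.1, 24.5 and 23.4 with A1 + OVA (-0.58 ± 0.064, adjusted p = 4.32e-06). Dusp5, its nuclear counterpart, changed by -0.46 ± 0.05 and Spry2, a Sprouty inhibitor, by -0.40 ± 0.059 (adjusted p = 3.59e-06 and 0.000122). Smaller decreases were those of Hbegf, a ligand of the EGF receptor (-0.20 ± 0.051, adjusted p = 0.0127), and of Ccnd1, cyclin D1 (-0.15 ± 0.034, adjusted p = 0.00715). The decrease of Ccnd1 is also counted among those of the replication and mitosis genes below. None of the 6 fell to the level of Control.

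**Figure D4:**
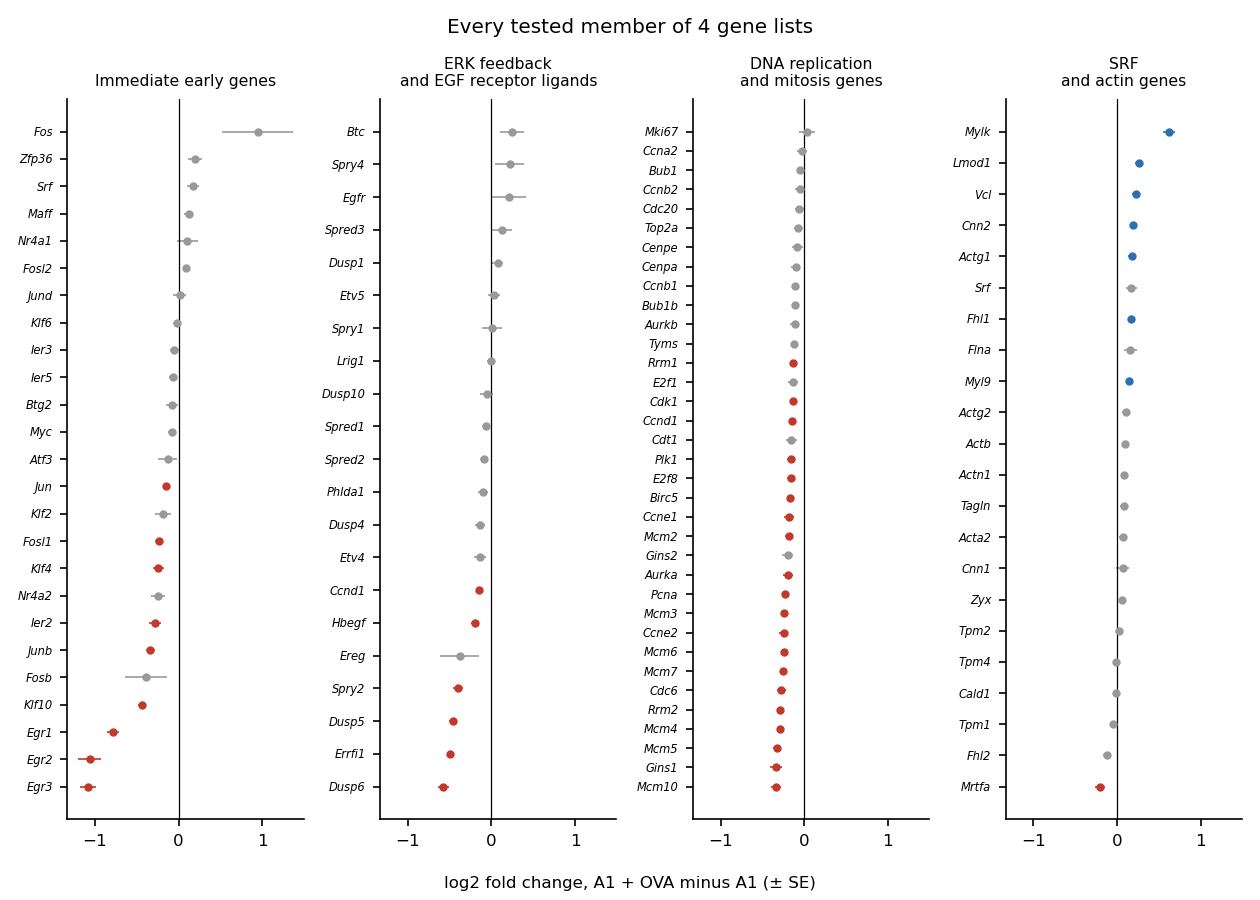
Log2 fold change, A1 + OVA minus A1, with its SE (x axes) of each tested member (y axes) of 4 gene lists. Called decreases are red, called increases blue and the rest grey. The Egr genes and the Dusp, Spry2 and Errfi1 genes stand furthest to the left, nearly all replication genes lie left of 0 with small changes, and the SRF and actin genes lie mostly right of 0.

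Secreted proteases and their inhibitors moved both ways. Mmp13, a collagenase (chr9:7272514-7283331), had 93.9, 91.5, 96.0 and 90.8 CPM with A1 and 45.2, 43.1, 34.7 and 39.8 with A1 + OVA (-1.20 ± 0.068, adjusted p = 2.66e-10). A1 alone had raised it by 1.17 from 40.2, 47.2, 38.2 and 39.9 CPM in Control, and the A1 + OVA samples overlapped Control. Mmp10, a stromelysin of low level, had 1.52, 2.21, 1.37 and 1.67 CPM with A1 and 1.23, 0.380, 0.528 and 0.863 with A1 + OVA (-1.19 ± 0.30, adjusted p = 0.0122). Timp1, an inhibitor of these proteases, fell by 0.38 on the log2 scale (adjusted p = 2.04e-05), and Mmp15, a membrane-bound metalloprotease that A1 had lowered, rose from 4.01 ± 0.100 to 5.78 ± 1.02 CPM (0.52 ± 0.13, adjusted p = 0.0103). In all, 4 of 16 tested metalloproteinase and TIMP genes were lower and 2 higher, and all 6 weakened the A1 response. The 2 increases dropped to 1 without A1 replicate 2 or A1 + OVA replicate 3.

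Of 11 tested genes listed for the plasminogen system, which include coagulation and serpin genes, 3 rose and 2 fell. The 2 DEGs among the increases were F3 and the serpin Serpinb9b, neither of which is a plasminogen activator. Plat, the tissue plasminogen activator, had 49.8, 47.0, 46.0 and 45.2 CPM with A1 and 30.9, 30.7, 29.8 and 30.3 with A1 + OVA (-0.63 ± 0.051, adjusted p = 7.55e-08), and 21.5, 22.3, 21.6 and 20.1 in Control, with no overlap between the groups. F3, tissue factor, the starter of coagulation, had 49.4, 51.4, 56.8 and 55.0 CPM with A1 and 83.0, 77.9, 78.9 and 80.0 with A1 + OVA (0.59 ± 0.05, adjusted p = 1.17e-07), while A1 alone had no called effect (-0.03, adjusted p = 0.662). Serpinb2, a serpin that inhibits urokinase and that A1 strongly raised, had 25.7, 31.1, 34.0 and 32.3 CPM with A1 and 25.9, 24.8, 26.9 and 23.8 with A1 + OVA (-0.28 ± 0.087, adjusted p = 0.035). Its groups overlapped, and the call was lost in 5 alternatives that left out 1 treated library each (A1 replicates 2, 3 and 4 and A1 + OVA replicates 2 and 4).

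The genes of BMP signaling that changed all fell. The BMP factors act through receptor kinases and Smad proteins on the ID genes, which hold back differentiation. Of 16 tested genes of this list 7 fell and 0 rose (median -0.21). Of the 7, 3 weakened and 2 strengthened the A1 response, and A1 alone had no called effect on 2. At an unadjusted p under 0.05 1 member was higher, and DESeq2 called 0 higher. Id2 had 66.5, 60.2, 60.0 and 61.9 CPM with A1 and 42.5, 46.0, 39.5 and 44.7 with A1 + OVA (-0.53 ± 0.052, adjusted p = 1.01e-06), below its 55.1, 56.9, 54.0 and 53.2 CPM in Control. Id1, which A1 had raised by 0.43, was back at 39.3 ± 1.71 CPM, against 40.0 ± 1.81 in Control (-0.45 ± 0.05, adjusted p = 4.32e-06). Smad9, a BMP-responsive Smad without a called effect of A1 alone (0.02, adjusted p = 0.787), changed by -0.43 ± 0.06 with OVA (adjusted p = 7.37e-05), and Acvr1, a BMP receptor, by -0.20 ± 0.041 (adjusted p = 0.00232). Bmp4 itself, which A1 lowered by 2.74, had 4.12, 3.89, 4.66 and 3.85 CPM with A1 and 5.44, 5.00, 5.55 and 4.38 with A1 + OVA, and the difference of 0.30 ± 0.11 was not called (adjusted p = 0.0996).

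Among the TGF-beta targets 4 of 22 tested genes fell and 3 rose, against 12.9% of all tested genes called. Of these changes, 3 strengthened and 4 weakened the A1 response. Tgfb2, the ligand TGF-beta 2, had 56.6, 59.7, 60.99 and 59.0 CPM with A1 and 82.0, 93.6, 93.4 and 84.4 with A1 + OVA (0.58 ± 0.048, adjusted p = 8.74e-08), against 104, 107, 103 and 100.5 in Control, a partial return after its loss with A1. Pmepa1 and Skil, both negative regulators of the pathway, changed the other way (-0.31 ± 0.039 and -0.25 ± 0.045, adjusted p = 2.08e-05 and 0.000854).

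Some inflammatory genes that A1 had lowered rose in part. Of 29 tested NF-kB and Toll-like receptor-induced genes 7 rose and 0 fell (median 0.13); 0 members were lower at an unadjusted p under 0.05, and DESeq2 called 0 lower. Of the 7 increases, 5 weakened the A1 response and 1 strengthened it. Of 11 tested chemokine genes 5 rose and 1 fell. Cxcl1, a neutrophil attractant (chr5:90891241-90893115), had 36.6, 42.6, 41.1 and 36.9 CPM with A1, 58.9, 55.1, 54.9 and 59.3 with A1 + OVA and 196, 214, 196 and 190.4 in Control. The OVA samples were above all A1 samples but stayed far below Control (0.54 ± 0.056, adjusted p = 1.82e-06). Ccl7, a monocyte attractant, had 291, 281, 285 and 268 CPM with A1 and 372, 365, 361 and 391.7 with A1 + OVA (0.40 ± 0.039, adjusted p = 6.21e-07), which overlapped its 389, 382, 367 and 365 CPM in Control. Ccl2, the related monocyte attractant, changed by 0.18 ± 0.041 (adjusted p = 0.00543), Ptx3, a soluble pattern recognition protein, by 0.36 ± 0.053 (adjusted p = 0.000116), and Zc3h12a, an RNase that degrades cytokine mRNAs, by 0.31 ± 0.046 (adjusted p = 0.000124).

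Most of the other secreted signals and receptors named here were lower with OVA. Cxcl14, a chemokine that A1 had raised by 2.94, had 10.3, 9.01, 9.01 and 8.57 CPM with A1 and 5.00, 5.38, 5.48 and 5.18 with A1 + OVA (-0.81 ± 0.099, adjusted p = 1.45e-05), with 1.19 ± 0.139 in Control. Il1rl1, the receptor of IL-33, had 110.1, 112, 117 and 118 CPM with A1 and 74.9, 76.7, 74.7 and 68.7 with A1 + OVA (-0.63 ± 0.045, adjusted p = 9.16e-09), still above its 14.4 ± 0.880 CPM in Control. Il1r1, the receptor of IL-1, had 120.3, 109.7, 119 and 119 CPM with A1 and 91.7, 84.2, 81.5 and 82.6 with A1 + OVA (-0.46 ± 0.048, adjusted p = 2.01e-06). A1 alone had no called effect on it (0.01, adjusted p = 0.891). Sema7a, a membrane-bound semaphorin raised by 4.01 with A1, fell by 0.38 (adjusted p = 3.42e-05). Il18, a cytokine of the IL-1 family near the limit of detection, had 0.795, 1.15, 1.07 and 1.45 CPM with A1 and 1.67, 2.34, 1.85 and 2.28 with A1 + OVA (0.87 ± 0.24, adjusted p = 0.0176). Its call was lost without A1 replicate 1, A1 + OVA replicate 2 or A1 + OVA replicate 4. Il6 had 0.289, 0.458, 0.534 and 0.654 CPM with A1 and 0.870, 0.696, 0.792 and 0.863 with A1 + OVA, a difference of 0.72 ± 0.30 that was not called (adjusted p = 0.138), and for Il1a the difference was -0.15 ± 0.15 (adjusted p = 0.555). Il12a was not detected in any sample, and Il12b had at most 1 count.

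Genes of a few vasoactive and growth factors that A1 had raised went further up. Pdgfb, a ligand of the PDGF receptors, had 2.39, 2.21, 2.82 and 2.32 CPM with A1 and 4.20, 5.45, 5.94 and 5.24 with A1 + OVA (1.099 ± 0.14, adjusted p = 2.43e-05), against 1.67, 1.54, 1.42 and 1.63 in Control. Edn1, the vasoconstrictor endothelin 1 (chr13:42301476-42307990), had 10.6, 13.7, 14.4 and 14.6 CPM with A1 and 20.4, 25.3, 27.5 and 23.05 with A1 + OVA (0.86 ± 0.097, adjusted p = 5.46e-06), against 9.04, 9.52, 10.1 and 8.72 in Control. For both genes the 3 groups did not overlap and rose in the order Control, A1, A1 + OVA. Lcp1, an actin-bundling protein best known from leukocytes, also went further up (0.69 ± 0.15, adjusted p = 0.00392), from 5.86, 6.34, 5.34 and 4.72 to 9.35, 9.37, 8.91 and 8.38 CPM. Pde4b, a cAMP phosphodiesterase that A1 had lowered, fell further from 5.57, 6.72, 6.49 and 7.12 to 3.70, 4.12, 4.62 and 2.90 CPM (-0.76 ± 0.13, adjusted p = 0.000518).

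Most of the actin genes that were called strengthened the A1 response. Of 22 tested SRF and actin genes 7 rose and 1 fell (median 0.10), and 6 of these 8 strengthened it. The single decrease was not called without A1 replicate 1, 2 or 4 or A1 + OVA replicate 4, and 2 genes fell without Control replicate 1 or 2. Vcl, vinculin, whose promoter is shown above, had 626, 693, 680.0 and 721 CPM with A1 and 744, 816, 843 and 779 with A1 + OVA (0.23 ± 0.05, adjusted p = 0.0046), against 438 ± 26.9 in Control. Cnn2, a calponin, changed by 0.19 ± 0.037 and Lmod1, a leiomodin, by 0.26 ± 0.047 (adjusted p = 0.00135 and 0.000831). The largest change, that of the myosin light chain kinase Mylk, went the other way relative to A1: it had 27.7, 24.8, 24.5 and 25.3 CPM with A1, 33.5, 40.4, 39.9 and 43.2 with A1 + OVA (0.62 ± 0.068, adjusted p = 3.59e-06) and 51.0, 51.8, 48.9 and 50.3 in Control. Of 14 tested integrins 3 rose and 0 fell, of which 1 strengthened and 2 weakened the A1 response. In the alternatives between 2 (without A1 replicate 1) and 5 rose (without Control replicate 2, and with only the 8 treated samples), and 1 fell without A1 + OVA replicate 1; 1 member was lower at an unadjusted p under 0.05, and DESeq2 called 0 lower. Itga5, the fibronectin receptor, went further up (0.28 ± 0.051, adjusted p = 0.000957), Itga1, a collagen receptor, came back in part (0.42 ± 0.072, adjusted p = 0.000518), and Itgb2, at 0.795, 1.68, 1.68 and 1.45 CPM with A1 and 2.32, 2.09, 2.71 and 2.71 with A1 + OVA, changed by 0.81 ± 0.21 (adjusted p = 0.0122), a call that was lost without A1 replicate 1.

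The lysosome genes that changed all rose. Of 32 tested lysosome genes 11 rose and 0 fell (median 0.11), between 10 and 12 when any 1 of the 12 samples was left out; 1 member was lower at an unadjusted p under 0.05, and DESeq2 called 0 lower. Of the 11, 9 weakened the A1 response, since A1 had lowered them. Neu1, a sialidase, had 21.9, 23.3, 20.5 and 20.6 CPM with A1, 26.5, 28.999, 33.4 and 31.6 with A1 + OVA and 32.4, 28.5, 29.3 and 28.4 in Control (0.48 ± 0.074, adjusted p = 0.000173). Gpnmb, a membrane glycoprotein of stressed lysosomes, had 66.5, 73.6, 70.9 and 70.1 CPM with A1 and 88.0, 89.3, 92.7 and 92.3 with A1 + OVA (0.37 ± 0.042, adjusted p = 5.46e-06). The pump that acidifies the lysosome was represented by Atp6v1a (0.26 ± 0.043, adjusted p = 0.000326) and Atp6v0d1 (0.26 ± 0.047, adjusted p = 0.00107). The calcium channel Mcoln1 changed by 0.39 ± 0.091 (adjusted p = 0.00672), with groups that overlapped, and Lamp2, a membrane protein of lysosomes, by 0.14 ± 0.037 (adjusted p = 0.0146).

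The listed complement and antigen presentation genes that changed moved toward Control. Of 9 tested complement genes 3 rose and 0 fell; 1 member was lower at an unadjusted p under 0.05, and DESeq2 called 0 lower. C3, the central component, had 86.4, 90.2, 75.9 and 93.9 CPM with A1, 112, 106, 120.0 and 133 with A1 + OVA and 137, 155, 166 and 149 in Control (0.45 ± 0.07, adjusted p = 0.000238). C1s1 and C1ra, proteases of the first component, changed by 0.34 ± 0.054 and 0.23 ± 0.047 (adjusted p = 0.000238 and 0.0027). Outside the list, Colec10, a collectin of the lectin pathway of complement, was a DEG that fell further below Control. C1rl, a relative of C1ra, was a DEG that rose toward Control. Of 22 tested genes of MHC class I presentation 2 rose and 1 fell, a share near the 12.9% of all tested genes. Tapbp, tapasin, which loads peptides on MHC class I, changed by 0.22 ± 0.048 (adjusted p = 0.0044) and Psme1, a proteasome activator, by 0.21 ± 0.047 (adjusted p = 0.0059), while Sec61a1, a channel of the endoplasmic reticulum, fell by 0.19 (adjusted p = 0.00159). The heavy chain genes showed no called difference. H2-K1 had 8.97, 9.01, 8.86 and 7.41 CPM with A1 and 9.13, 9.50, 9.77 and 10.1 with A1 + OVA (adjusted p = 0.248), and the differences were 0.06 ± 0.044 for H2-D1 and 0.02 ± 0.047 for B2m (adjusted p = 0.418 and 0.86). H2-K1 and H2-D1 are closely related in sequence, and how their shared reads were counted is uncertain.

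Interferon-induced genes, of which A1 lowered 25 of the 36 tested, rose in 5 cases and fell in 1. Over all tested genes, 6.05% were called higher and 6.81% lower. Their median change with OVA was 0.12, against -0.65 with A1. Ifit2 changed by 0.36 ± 0.066 and Ddx58, the RNA sensor RIG-I, by 0.28 ± 0.064 (adjusted p = 0.00115 and 0.00654), and Ifi204, a DNA sensor with close paralogs, by -0.31 ± 0.044 (adjusted p = 7.37e-05). The 5 increases came down to 3 without any one of the A1 replicates and to 2 without A1 + OVA replicate 4.

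The genes of DNA replication and mitosis that changed all fell, by small amounts. Of 35 tested genes 20 fell and 0 rose (median -0.16), between 15 and 21 when any 1 sample was left out; 0 members were higher at an unadjusted p under 0.05, and DESeq2 called 0 higher. Of the 20, 18 had been raised by A1, and none reached the fold change threshold of a DEG. The helicase subunits of the MCM complex were among them. Mcm5, the gene with the E2F elements above, had 163, 144, 152 and 153 CPM with A1, 125, 116, 127 and 120.3 with A1 + OVA and 136, 125, 134 and 136 in Control (-0.33 ± 0.043, adjusted p = 3.46e-05). Mcm4 had 286, 279.5, 280.5 and 289.9 CPM with A1 and 231, 229, 237 and 233 with A1 + OVA (-0.29 ± 0.039, adjusted p = 4.31e-05). For both genes the A1 + OVA samples were below all A1 samples. Rrm2, a subunit of ribonucleotide reductase, changed by -0.28 ± 0.037 (adjusted p = 3.12e-05) and Mcm10, a replication initiation factor, by -0.34 ± 0.06 (adjusted p = 0.000664).

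Ribosome biogenesis genes, of which A1 raised 34 of 35, were called lower in 9 cases and higher in 0, with Nhp2 (-0.26 ± 0.047, adjusted p = 0.000951) and Dkc1 (-0.21 ± 0.043, adjusted p = 0.00254), both of the complex that modifies ribosomal RNA, at the front. This count came down to 3 without A1 + OVA replicate 4, 4 without A1 replicate 3 and 5 without A1 replicate 4; 1 member was higher at an unadjusted p under 0.05, and DESeq2 called 0 higher. The ribosomal proteins themselves showed 0 calls among 60 tested genes (3 at an unadjusted p under 0.05, 0 with DESeq2, and 2 in the main test without A1 + OVA replicate 1), and the nuclear subunits of oxidative phosphorylation 0 among 40 (1 at an unadjusted p under 0.05, 0 with DESeq2, and 1 in the main test without A1 replicate 4).

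The metallothioneins Mt1 and Mt2 and heme oxygenase went further up, though their lists did not move as a whole. Of 12 tested metallothionein and metal handling genes 3 rose and 2 fell (0 fell without A1 replicate 4). Among these genes 2 strengthened and 2 weakened the A1 response. Of 26 tested NRF2 antioxidant targets 3 rose and 0 fell, near the share of all tested genes, and 2 of the 3 weakened it. At an unadjusted p under 0.05, 3 of the 26 were lower, and DESeq2 called 0 lower. Mt2, a metallothionein that binds zinc and copper, had 21.1, 20.8, 19.2 and 17.9 CPM with A1, 30.6, 30.8, 33.5 and 29.6 with A1 + OVA and 14.2, 10.8, 14.1 and 13.4 in Control (0.65 ± 0.077, adjusted p = 8.57e-06). Mt1, its close neighbour and paralog, had 65.1, 67.6, 60.3 and 56.9 CPM with A1 and 85.5, 87.7, 86.7 and 91.1 with A1 + OVA (0.49 ± 0.064, adjusted p = 2.69e-05). Hmox1, heme oxygenase 1, changed by 0.26 ± 0.043 (adjusted p = 0.000344), after 0.45 with A1 alone. Mt1, Mt2 and Hmox1 all strengthened the A1 response. Among the NADPH oxidase genes, 4 of 14 were tested: Nox4, a catalytic subunit, had 16.0, 18.6, 18.2 and 16.3 CPM with A1 and 18.0, 17.7, 16.6 and 16.0 with A1 + OVA (-0.01 ± 0.076, adjusted p = 0.931), and Rac1, a small GTPase that serves the oxidase among other things, fell by 0.16 (adjusted p = 0.0048). Cyba, the membrane partner of Nox4, had at most 1 count in any sample.

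Of 27 tested glycolysis and hypoxia genes 3 rose and 4 fell, and the 4 dropped to 2 without A1 replicate 1 or 3 or A1 + OVA replicate 2 or 4. Slc2a1, the glucose transporter GLUT1, went further up from 93.2 ± 4.35 to 110.3 ± 3.27 CPM (0.24 ± 0.044, adjusted p = 0.000824), as did Hk2, hexokinase 2 (0.33 ± 0.073, adjusted p = 0.0044). Ndrg1, a hypoxia-responsive gene, had 16.3, 15.7, 17.5 and 15.5 CPM with A1 and 23.3, 27.2, 27.4 and 25.5 with A1 + OVA (0.67 ± 0.076, adjusted p = 5.46e-06), without a called effect of A1 alone (-0.14). Ldha, lactate dehydrogenase A, came down by 0.17 (adjusted p = 0.00454). Of 24 tested genes of fatty acid oxidation 4 rose and 0 fell, all of which A1 had lowered; 0 members were lower at an unadjusted p under 0.05, and DESeq2 called 0 lower. Echs1, a mitochondrial hydratase, changed by 0.22 ± 0.051 (adjusted p = 0.00672). The largest change in this list was 0.22. Plin4, a coat protein of lipid droplets, belongs instead to the list of bone and fat formation below. It had 132, 147, 123 and 143 CPM with A1, 177, 193, 222 and 233 with A1 + OVA and 284, 297, 325 and 317 in Control (0.60 ± 0.071, adjusted p = 9.91e-06). The cholesterol synthesis enzymes, of which A1 lowered 19 of 20, showed 0 calls with OVA (3 at an unadjusted p under 0.05, 0 with DESeq2), and 1 member was called lower without A1 replicate 1. Hmgcs1 had 289 ± 14.7 CPM with A1 and 279 ± 12.7 with A1 + OVA (-0.05 ± 0.045, adjusted p = 0.509), both below 590.1 ± 26.4 in Control. Of the genes for fatty acid synthesis, Elovl6, an elongase, fell further (-0.29 ± 0.037, adjusted p = 2.24e-05) and Acss2, which makes acetyl-CoA from acetate, rose in part (0.48 ± 0.089, adjusted p = 0.0011).

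A1 raised 24 of the 33 tested genes of the unfolded protein response, and with OVA 2 rose and 3 fell, a share near the 12.9% of all tested genes. Hspa5, the main chaperone of the endoplasmic reticulum, had 2282, 2478, 2527 and 2504 CPM with A1 and 2558, 2550, 2348 and 2483 with A1 + OVA (0.02 ± 0.042, adjusted p = 0.78), with overlapping groups. The transcription factors of the response showed no called difference, with -0.03 ± 0.034 for Atf4, -0.05 ± 0.038 for Atf6, 0.03 ± 0.04 for Xbp1 and 0.12 ± 0.081 for Ddit3 (adjusted p = 0.627, 0.426, 0.645 and 0.361). Dnajc3, an inhibitor of the kinase PERK, fell by 0.23 (adjusted p = 0.000656) and Selenos, a factor of protein export for degradation, by 0.24 (adjusted p = 0.00505). The 2 increases came down to 1 or 0 without any treated library other than A1 + OVA replicate 4, and to 1 without Control replicate 3 or 4, with DESeq2, with all genes of the file and with the replicate block. Of 26 tested heat shock chaperones 4 fell and 1 rose, among them Hspa8, the constitutive HSC70 (-0.16 ± 0.034, adjusted p = 0.0038), and Ubb, polyubiquitin B (-0.26 ± 0.045, adjusted p = 0.000599), and the 4 dropped to 2 without A1 replicate 2. The single increase was not called with all genes of the file and without A1 replicate 1, 2 or 3 or A1 + OVA replicate 1, 2 or 4.

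Of 20 tested genes of bone and fat formation 5 fell and 2 rose with OVA, and 6 of these 7 moved against the A1 response. Spp1, osteopontin (chr5:104435118-104441050), an abundant secreted phosphoprotein of bone, had 3167, 3029, 3368 and 3198 CPM with A1, 2409, 2272, 1992 and 2146 with A1 + OVA and 1133, 1206, 1140 and 1112 in Control (-0.53 ± 0.049, adjusted p = 3.92e-07). Dmp1, a dentin and bone matrix protein of low level, had 2.53, 2.75, 2.52 and 2.11 CPM with A1 and 1.59, 1.52, 1.39 and 1.42 with A1 + OVA (-0.74 ± 0.18, adjusted p = 0.0101). Lpl, lipoprotein lipase, rose from 584 ± 14.1 to 688 ± 29.5 CPM (0.24 ± 0.043, adjusted p = 0.00093), still below its 1840 ± 105 in Control. Runx2, the factor that starts bone formation, was the one that fell further, from 94.7, 104, 95.0 and 97.9 to 82.3, 81.2, 85.0 and 81.9 CPM (-0.24 ± 0.046, adjusted p = 0.00119), against 125 ± 7.35 in Control. Smoc1, a matrix protein that binds calcium, had 26.6, 25.4, 25.9 and 29.6 CPM with A1 and 16.4, 16.8, 14.5 and 16.6 with A1 + OVA (-0.74 ± 0.072, adjusted p = 6.43e-07).

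Of the 17 macrophage and leukocyte genes 3 passed the filter on low counts, of which 2 were lower with OVA. The third, Cd68, a lysosomal protein of macrophages, had a difference of 0.32 ± 0.20 that was not called (adjusted p = 0.324). Mrc1, the mannose receptor, a route by which OVA is known to enter cells, had 3.04, 2.52, 3.59 and 2.90 CPM with A1, 2.17, 1.77, 1.52 and 2.28 with A1 + OVA and 1.42, 1.77, 1.42 and 1.32 in Control (-0.64 ± 0.17, adjusted p = 0.0177), a call that was lost without A1 replicate 3 or A1 + OVA replicate 3. Cd14, a co-receptor of Toll-like receptors, had 11.4, 10.9, 10.3 and 12.6 CPM with A1 and 8.70, 9.69, 8.52 and 10.0 with A1 + OVA (-0.29 ± 0.087, adjusted p = 0.0322), and its call was lost with DESeq2 and without A1 replicate 1, A1 replicate 4, A1 + OVA replicate 1 or A1 + OVA replicate 3. The summed level of the 17 macrophage and leukocyte genes was between 15.4 and 18.0 CPM with A1, between 13.1 and 15.9 with A1 + OVA and between 11.7 and 13.1 in Control. The defining markers Spi1, Tyrobp, C1qa and C1qb were at 0 in all samples. Since whole cultures were sequenced, fewer cells that express a gene and less RNA per cell cannot be told apart.

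Some of the largest changes lay outside these lists. Lrrc4c, a neuronal adhesion protein, had 5.13, 4.43, 4.89 and 3.85 CPM with A1 and 2.75, 2.60, 2.38 and 1.85 with A1 + OVA (-0.94 ± 0.16, adjusted p = 0.000437). Flrt2, an adhesion protein that also binds FGF receptors (-0.68 ± 0.053), Kcnk2, a potassium channel (-0.66 ± 0.08), Gpr39, a zinc-sensing receptor (-0.65 ± 0.078), and Sox5, a cartilage transcription factor (-0.71 ± 0.15), were all raised by A1 and fell with OVA (adjusted p = 4.00e-08, 1.54e-05, 1.26e-05 and 0.00289). Hist1h1c, a linker histone, fell further below Control (-0.66 ± 0.096, adjusted p = 0.000114). It belongs to the replication-dependent histones, whose mRNAs lack a poly(A) tail and are captured poorly by polyA selection. Increases of genes lowered by A1 included those of Aldh1a7, an aldehyde dehydrogenase with a close paralog (0.98 ± 0.21, adjusted p = 0.00358), Nckap5 (0.85 ± 0.14, adjusted p = 0.000509) and Hdac11, a histone deacetylase (0.70 ± 0.16, adjusted p = 0.00524). Nckap5 had 2.46, 2.21, 2.52 and 2.32 CPM with A1, 3.26, 4.50, 4.69 and 4.68 with A1 + OVA and 7.61, 7.57, 7.92 and 7.09 in Control, and Gabrb1, a subunit of GABA receptors on which A1 alone had no called effect, changed by 0.72 ± 0.17 (adjusted p = 0.00752).

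The plot of called shares holds all lists with at least 9 tested members. The DNA replication, BMP, immediate early, ERK feedback and ribosome biogenesis lists stood lowest, with 0 of their members called higher, and the chemokine, lysosome, complement and SRF lists stood highest. 

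**Figure D5:**
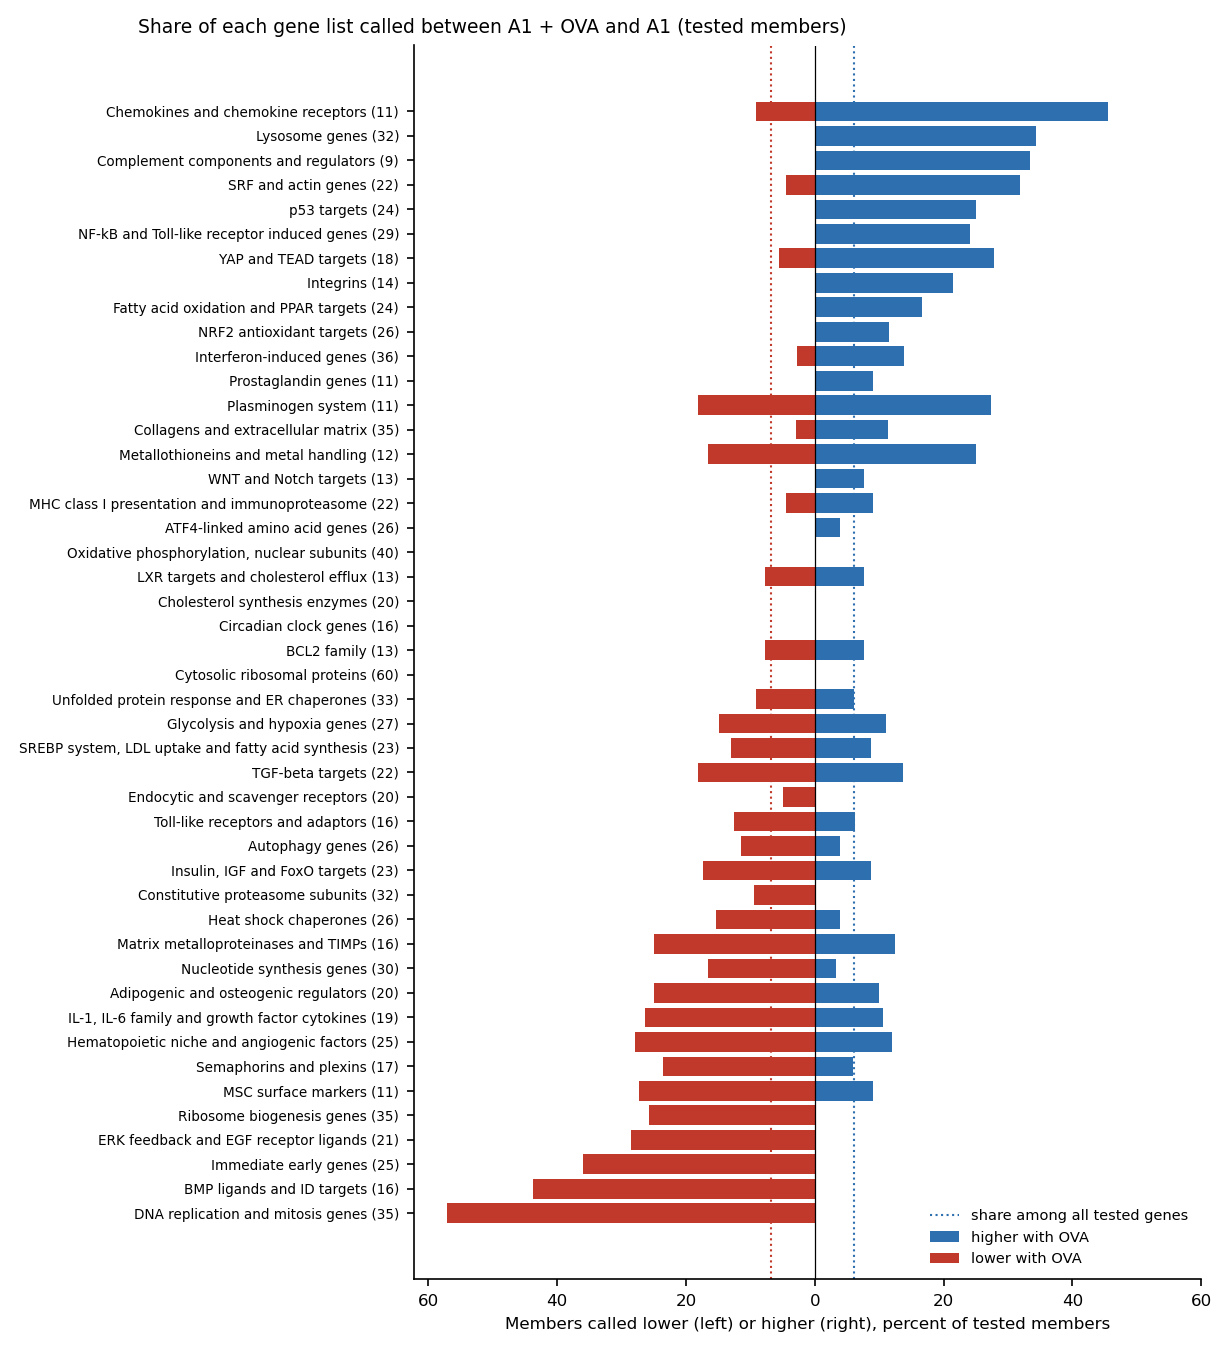
Percent of the tested members of each gene list (number in brackets) that were called higher (blue, right) or lower (red, left) with A1 + OVA than with A1 at an adjusted p under 0.05. The dotted lines mark the shares among all 11314 tested genes, 6.05% higher and 6.81% lower, and the bars of the replication and BMP lists reach furthest to the left.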

How the data were processed

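The mRNA of 12 samples of mouse MSCs was measured by strand-specific sequencing after polyA selection. The authors aligned the reads to GRCm38 with STAR (2.7) and counted them per Ensembl gene with featureCounts (2.0), as the submitters' processing notes state, and deposited raw counts of 55487 genes without normalization. Samples were grouped by their titles. Symbols, biotypes and coordinates came from GENCODE M21 (GRCm38), a release other than the one the authors counted with, which held 99.53% of the identifiers, and promoter sequences from RefSeq (GRCm38.p6).

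The 21974 protein-coding genes passed through filterByExpr, which left 11314. After TMM normalization, a quasi-likelihood model was fitted with edgeR (4.0.16, under R 4.3.3) to the 3 groups and all 12 samples together. Benjamini-Hochberg adjustment of the p-values was done over all tested genes. CPM use the TMM library sizes, except for the summed marker levels, which use the plain total of protein-coding counts. SEs of log2 fold changes were derived from the test's F statistic, and fold changes of low genes carry more counting error. A total of 3 counts in a library was taken as the limit of detection. Alternatives were DESeq2 (1.42.0), upper-quartile normalization, other filters, all genes of the file, only the 8 treated samples, the replicate number as a block, a log2 fold change threshold of 1, another direction of the A1 response and each sample left out in turn.

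The comparison, the 52 gene lists and the rule for named genes were chosen with earlier results of these data known. Genes were named if they were among the 15 largest increases or 15 largest decreases past an adjusted p of 0.05 whose log2 CPM averaged 1 or more and whose A1 and A1 + OVA samples were separate, if they were DEGs of a list, if they had one of the 4 smallest p-values of a list, or if they belonged to a fixed set (among them Nox4, Cyba, Atf4, Atf6, Xbp1, Hspa5, Ddit3, H2-K1, H2-D1, B2m, Hmgcs1, Il6, Ccl2, Cxcl1, Serpinb2, Sema7a, Il1a and Bmp4). The rule selects 227 genes, of which the text gives a part and some are not reported here, and 8 of the 124 tested genes with values in the text were chosen after these were seen (Ccnd1, Fosl1, Hbegf, Ier2, Junb, Lamp2, Mcm10 and Mcoln1). On simulated counts of 11255 genes, edgeR recovered 89% of changes of 0.5 and 97% of changes of 1 on the log2 scale in this comparison and called 7 unchanged genes. No smaller changes were simulated, and A1 was set equal to Control. The recovery of the small differences that make up most calls was therefore not tested. Replicates of a group differed by 1.92 to 6.83 times the counting variance, and none were taken as the same library.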

Additional observations from a re-analysis of the deposited data

Results flagged for a closer look

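In each group of 4 samples, the value farthest from the others was compared with the range of the group for every gene whose values are given in the text. Of 372 such groups 17 (4.57%) had a sample farther out than Dixon's critical value, where chance gives about 1 in 20. In the A1 group the highest value stood apart for Id1 in replicate 1 (56.5 CPM, the others 52.6 to 53.1). In the A1 group the lowest value stood apart for Egr2 in replicate 4 (5.96 CPM, the others 7.79 to 7.96), H2-K1 in replicate 4 (7.41 CPM, the others 8.86 to 9.01), Hbegf in replicate 1 (56.1 CPM, the others 62.6 to 63.7), Il1r1 in replicate 2 (109.7 CPM, the others 119 to 120.3) and Lmod1 in replicate 3 (45.9 CPM, the others 47.7 to 48.1). In the A1 + OVA group the highest value stood apart for Flrt2 in replicate 1 (40.5 CPM, the others 34.8 to 35.3) and Rrm2 in replicate 1 (283 CPM, the others 267 to 269). In the A1 + OVA group the lowest value stood apart for Nckap5 in replicate 1 (3.26 CPM, the others 4.50 to 4.69) and Ubb in replicate 2 (101 CPM, the others 101.99 to 102.1). In the Control group the highest value stood apart for C1s1 in replicate 2 (162 CPM, the others 145 to 146), Dusp6 in replicate 2 (10.6 CPM, the others 9.22 to 9.41), Il1r1 in replicate 2 (126 CPM, the others 112 to 114) and Mcoln1 in replicate 4 (37.9 CPM, the others 34.5 to 35.0). In the Control group the lowest value stood apart for Ddit3 in replicate 1 (24.1 CPM, the others 27.01 to 27.6), Rrm2 in replicate 1 (229.8 CPM, the others 246 to 249) and Vcl in replicate 1 (398 CPM, the others 446 to 454).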

How the results depend on the processing

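DESeq2, upper-quartile normalization, both other filters, all genes of the file and only the 8 treated samples left the counts of genes and DEGs in each direction, and of weakening and strengthening DEGs where they give one, within 1.5 times their values, and 104 of the 110 called genes given in the text kept their call and direction in every setting that tested them (18 or 19 a gene). The 6 that lost it in at least 1 setting (Cd14, Ier2, Il18, Itgb2, Mrc1 and Serpinb2) are named with those settings above. At a log2 fold change threshold of 1, 9 genes were higher and 7 lower with OVA, and 12 weakened and 1 strengthened the A1 response, as fewer genes pass it. With the direction from the mean of the treated samples 26 DEGs strengthened it, and at an adjusted p alone 1004 genes weakened and 209 strengthened it. Leaving out 1 sample gave between 456 and 771 genes higher and 497 and 848 lower, between 58 and 105 DEGs higher and 38 and 50 lower, and between 70 and 107 weakening and 13 and 22 strengthening DEGs. The lowest counts came without A1 replicate 1 (456) and A1 + OVA replicate 4 (497 and 58), and their cause was not tested. Of the genes with no call, B2m ranged from -0.024 to 0.054, Hspa5 from -0.015 to 0.048 and Nox4 from -0.054 to 0.024 when 1 sample was left out, which includes a change of sign. Same-numbered A1 and A1 + OVA samples deviated together by a correlation of -0.132 to 0.052 over genes, and not every sample correlated best with its own number, so that the numbers were not taken to pair the samples. With the replicate block 724 genes were higher and 764 lower, with 85 and 47 DEGs, of which 94 weakened and 17 strengthened the A1 response. The median change of all tested genes stayed between -0.0006 and 0.0123 in these settings. Depth limits low genes most, such as Mmp10, Il18 and Il6, each at most 3.28 CPM in a sample.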

Other observations

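The targets of p53, the factor that halts the cell cycle after DNA damage and other stress, had 6 increases and 0 decreases with OVA among 24 tested genes (1 lower at an unadjusted p under 0.05, and 0 lower with DESeq2). Of the 6, 3 strengthened and 2 weakened the A1 response, and A1 alone had no called effect on 1. Plk2, a kinase, had 99.4, 116, 124 and 119 CPM with A1 and 133, 141, 151 and 135 with A1 + OVA (0.29 ± 0.055, edgeR's adjusted p = 0.00149), and Gadd45b and Gadd45g, stress sensors, changed by 0.29 ± 0.059 and 0.33 ± 0.066 (edgeR's adjusted p = 0.00209 and 0.002). Fas, a death receptor that A1 had lowered by 1.52, came back in part, from 4.92, 6.34, 7.94 and 5.88 CPM to 8.41, 9.50, 9.11 and 8.44 CPM (0.50 ± 0.12, edgeR's adjusted p = 0.00752), and Control had 18.2, 19.3, 16.0 and 18.2 CPM.

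Of 25 tested factors of the blood-forming niche and of blood vessel growth 7 fell and 3 rose with OVA. Nrp1, a coreceptor of VEGF and semaphorins on which A1 alone had no called effect, had 184, 186, 180.2 and 196 CPM with A1 and 166, 163, 155 and 151 with A1 + OVA (-0.23 ± 0.041, edgeR's adjusted p = 0.000656). Angptl2, a secreted angiopoietin-like protein that A1 had raised by 1.01, came down from 505, 471, 467 and 478 to 422, 415, 402 and 406 CPM (-0.22 ± 0.036, edgeR's adjusted p = 0.000345). In each of these genes the A1 and A1 + OVA samples did not overlap. Of 16 tested circadian clock genes 0 were called (4 at an unadjusted p under 0.05, and 0 with DESeq2), while 1 or 2 were called higher in 9 alternatives, with 1 under the replicate block and 2 without Control replicate 1. Of 23 tested insulin, IGF and FoxO targets 4 fell and 2 rose with OVA, of which 4 weakened and 2 strengthened the A1 response. The 4 dropped to 2 without A1 replicate 2, and the 2 to 1 with DESeq2, without the filter on low counts, with all genes of the file, with the replicate block and without any 1 sample other than Control replicate 1 or 2.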
